A study of Homo sapiens with 4 samples.

Results

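The core circadian clock genes CLOCK, NPAS2, ARNTL (the gene of BMAL1), PER1, PER2, PER3, CRY1, CRY2, NR1D1 and NR1D2 were followed in KYSE30 cells, an established line of human esophageal squamous cell carcinoma. The 10 genes were chosen by name, as rows of the deposited table of 30716 genes, and each had 1 row there. The set was put together with the shYY1 and shNC values of these libraries already known, CLOCK's among them, so the differences of the 10 genes between the groups are given as a description and support nothing further. All 10 passed the filter on low counts with at least 260 counts in every library, and they are 10 of 18035 genes tested.

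The 4 libraries were 2 from cells with stable short hairpin RNA against YY1 (shYY1) and 2 from cells with a negative-control hairpin (shNC). YY1 is a zinc finger transcription factor. Per the labels' protocols both kinds of cell were grown in DMEM with serum and the stable cells were selected with puromycin; the sources used here give neither the hairpin sequences, nor the number of hairpins or clones, nor the hour of harvest. Each clock gene was therefore read at 1 unknown point of any daily cycle, and no label tells if the replicates came from separate cultures. Standard errors and p-values therefore measure the spread between these libraries, which may be technical.

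In the mammalian clock a dimer of CLOCK, or of its relative NPAS2, with BMAL1 binds E-boxes and drives transcription of the PER and CRY genes. PER and CRY proteins return to the nucleus and inhibit that dimer, so their own transcription falls again. In a second loop the nuclear receptors REV-ERB alpha and beta, encoded by NR1D1 and NR1D2, repress ARNTL through elements that ROR receptors also bind, and proteins of the DBP family and NFIL3 act through D-boxes.

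Total counts ranged from 67390336 to 72499865 per library. YY1 had 2606 and 2344 counts in the shYY1 libraries, against 8147 and 7960 in the shNC libraries, a log2 fold change of -1.67 ± 0.088 (SE). Of 10 squamous epithelial markers, SFN, TP63, SOX2 and KRT6A were among those detected. The list summed to 623 to 639 CPM (counts scaled to library size) in shYY1 and 509 to 556 in shNC. Most of it was SFN, at 448 and 435 CPM in shYY1 and 324 and 386 CPM in shNC. KRT14 was at 4.0 and 3.75 CPM in shYY1 and 3.74 and 4.67 CPM in shNC. KRT17 was at 1.18 and 1.74 CPM in shYY1 and 1.29 and 1.55 CPM in shNC. KRT5 was under 1 CPM in all 4 libraries, and PKP1 was too low to be tested. Because the extraction text of the labels speaks of retina, retina markers were also read. Of 10, 4 had a row, and together they reached 0.555 and 0.878 CPM in shYY1, against 0.999 and 1.22 CPM in shNC. Of 6 immune markers 5 had a row and summed to 5.75 and 4.14 CPM in shYY1, against 5.13 and 6.11 CPM in shNC, most of it from CD68 (330 and 264 counts in shYY1, 291 and 379 in shNC), while PTPRC and CD3E were at 0 counts in all 4 libraries. Of 6 stromal markers 3 had a row and summed to 7.15 and 5.46 CPM in shYY1, against 4.75 and 6.79 CPM in shNC, mostly COL1A1. Of 5 endothelial markers 3 had a row and summed to 4.27 and 4.25 CPM in shYY1, against 4.87 and 4.70 CPM in shNC, mostly CDH5. The part of these markers in the results below was not tested.

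The promoters of the 2 genes that stood apart, CLOCK and PER3, are shown first, since clock genes are in large part controlled through a few short motifs near their starts. RefSeq promoter windows (GRCh38.p14, 250 bases before to 50 bases after an annotated start) were found for all 10 genes, 15 windows in all. The windows below are CLOCK at chr4:55545883-55546182 on the minus strand and PER3 at chr1:7784041-7784340 on the plus strand, printed 5′ to 3′, and capitals mark matches to the motifs searched.
CLOCK: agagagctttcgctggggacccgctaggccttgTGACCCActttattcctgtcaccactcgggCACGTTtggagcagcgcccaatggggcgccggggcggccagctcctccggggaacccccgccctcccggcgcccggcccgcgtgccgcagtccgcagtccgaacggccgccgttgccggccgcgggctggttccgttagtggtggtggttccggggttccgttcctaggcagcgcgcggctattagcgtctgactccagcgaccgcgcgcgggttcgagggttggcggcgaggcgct
PER3: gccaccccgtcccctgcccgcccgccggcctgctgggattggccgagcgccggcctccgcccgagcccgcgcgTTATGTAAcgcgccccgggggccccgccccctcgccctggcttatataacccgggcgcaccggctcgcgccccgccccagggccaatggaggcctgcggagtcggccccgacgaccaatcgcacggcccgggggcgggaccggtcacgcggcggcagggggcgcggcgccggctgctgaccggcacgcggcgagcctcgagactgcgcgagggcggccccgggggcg
The CLOCK window holds 1 E-box-like match (CACGTT) and, on the opposite strand, 1 match to the core of a ROR element, and the PER3 window holds 1 D-box. The other annotated start of each of these genes has a window with none of the motifs.

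The motifs were the E-box CACGTG, the E-box-like CACGTT, the D-box TTATGNAA, the ROR element core TNGGTCA, the cyclic AMP response element TGACGTCA and the YY1 motif AANATGGC, each on both strands. For comparison with the windows above, the excerpts below come from promoters of genes whose levels differed less between the groups. They are PER1 at chr17:8152552-8152597 and chr17:8152407-8152454 (minus strand), PER2 at chr2:238288782-238288827 (minus strand), NR1D2 at chr3:23945946-23945991 (plus strand) and ARNTL at chr11:13277800-13277839 (plus strand), with the motif in capitals.
PER1 E-box: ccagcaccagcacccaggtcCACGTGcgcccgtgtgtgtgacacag
PER1 D-box: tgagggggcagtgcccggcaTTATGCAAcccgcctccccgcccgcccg
PER2 E-box-like: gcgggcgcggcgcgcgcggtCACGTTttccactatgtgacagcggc
NR1D2 E-box: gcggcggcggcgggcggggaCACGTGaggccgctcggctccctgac
ARNTL ROR element: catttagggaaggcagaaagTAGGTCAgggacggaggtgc
An E-box was found for 2 of the 10 genes (PER1 and NR1D2), an E-box-like match for 5 (CLOCK, CRY1, CRY2, NR1D1 and PER2), a D-box for 3 (PER1, PER3 and NR1D2) and a ROR element core for 4 (ARNTL, CLOCK, CRY2 and NR1D2). No window of the 10 genes held the YY1 motif or the cyclic AMP response element. These are counts of genes, of which 5 had 2 windows, whereas the shares that follow are of single windows. Of all 35116 windows of the same length, 7.26% hold the E-box, 5.34% the E-box-like match and 3.30% the D-box. The ROR element core is held by 9.45%, the cyclic AMP response element by 1.85% and the YY1 motif by 6.58%. A match is a run of letters and not a site shown to be bound, and motifs farther from the start were not searched.

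**Figure D1:**
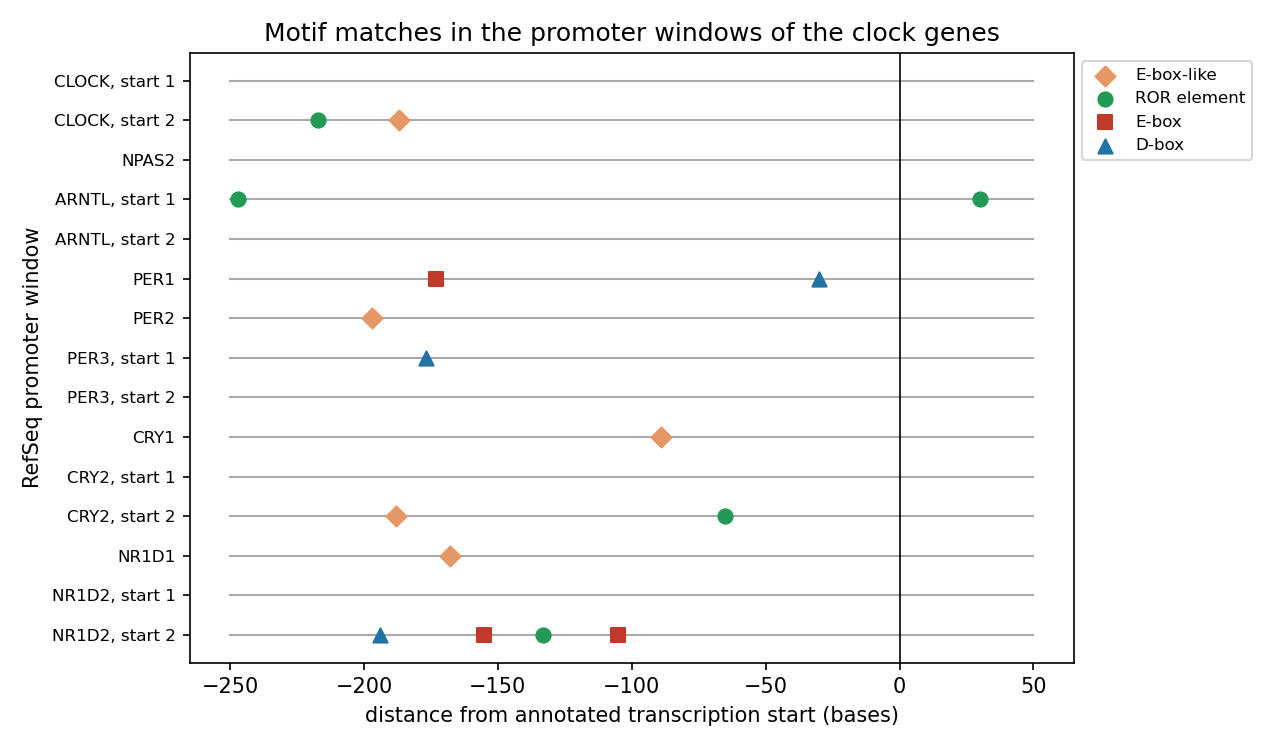
Motif matches in the 15 RefSeq promoter windows of the 10 clock genes; the x axis is the distance of the match's first base from the annotated transcription start in bases, each grey line is 1 window, and the symbols mark the 4 motifs with a match. CLOCK and PER3 carry matches in 1 of their 2 windows each, NR1D2 carries 4 in 1 window, and NPAS2 has none.

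The positive arm was first compared between the groups. CLOCK encodes a partner of BMAL1 and lies on chromosome 4 (ENSG00000134852, 55427903 to 55546909, minus strand, by the table's own coordinates, whose build is not named). It had 767 and 682 counts in the shYY1 libraries, against 2433 and 2009 in the shNC libraries. Scaled by library size with edgeR's TMM factors these were 10.9 and 9.99 CPM in shYY1 and 34.7 and 27.9 CPM in shNC. The groups did not overlap, and the lower shNC library was still far above the higher shYY1 library. The log2 fold change was -1.58 ± 0.139 (SE), so that CLOCK stood 2.99-fold lower in shYY1. Leaving out each library in turn gave -1.73 to -1.41. Each such fit leaves 1 group with a single library, which is assumed to vary like the pair of the other group, so a call lost in it can come from the smaller design.

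NPAS2 (ENSG00000170485, chromosome 2, 100820139 to 100996829, plus strand), the relative that can take CLOCK's place in the dimer, was at 10.6 and 11.5 CPM in shYY1 and at 11.9 and 12.4 CPM in shNC. Its groups did not overlap, but the log2 fold change of -0.13 was smaller than its SE of 0.14. ARNTL (ENSG00000133794, chromosome 11, 13276652 to 13387266, plus strand), whose product BMAL1 is the common partner of both, was at 10.9 and 11.4 CPM in shYY1 and at 9.94 and 9.29 CPM in shNC, a log2 fold change of 0.21 ± 0.146 (SE). Of the 3 genes of the positive arm only CLOCK was thus separated by several times its SE.

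Levels of different genes were set side by side in the authors' FPKM, which are scaled to gene length. In the shYY1 libraries CLOCK was at 0.788 and 0.702 FPKM, against 2.64 and 2.01 FPKM in the shNC libraries. NPAS2 was at 0.707 and 0.745 FPKM in shYY1 and 0.830 and 0.825 FPKM in shNC. The ratio of NPAS2 to CLOCK was 0.898 and 1.06 in shYY1, against 0.314 and 0.411 in shNC. The ratio of ARNTL to CLOCK was 1.65 and 1.89 in shYY1, against 0.471 and 0.549 in shNC. CLOCK was therefore the more abundant of the 3 transcripts per length in both shNC libraries, while in both shYY1 libraries ARNTL was above it and NPAS2 was near it.

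**Figure D2:**
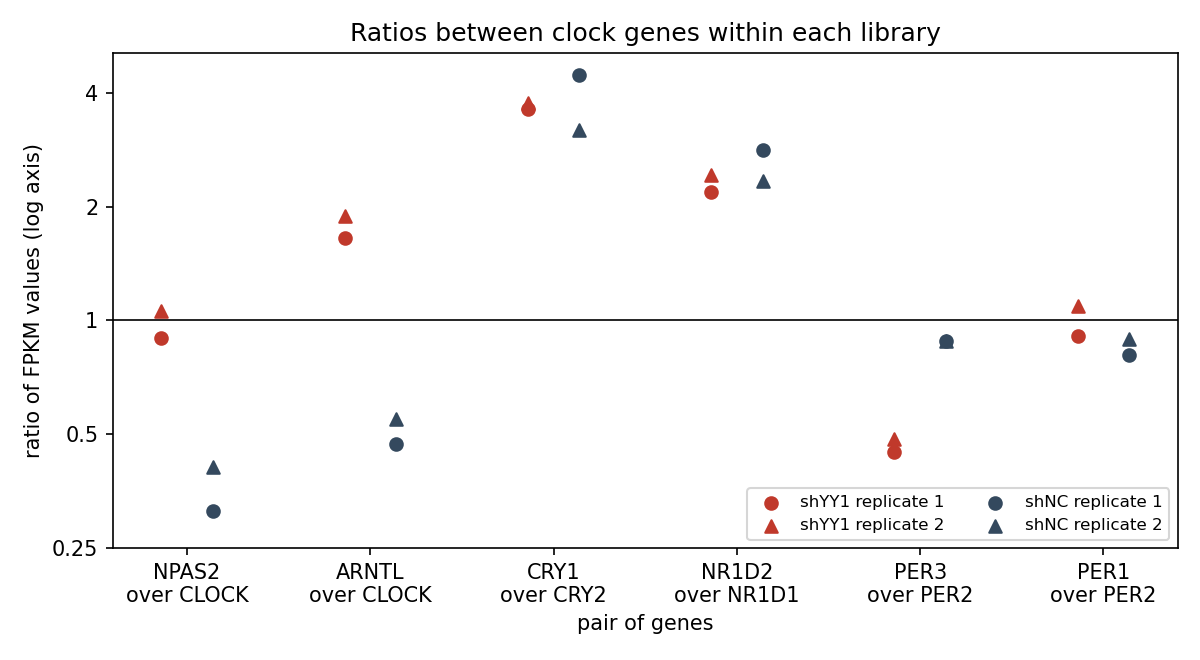
Ratios of deposited FPKM values between pairs of clock genes within each library, on a log axis, with shYY1 libraries (red) left of shNC libraries (dark); circles are replicate 1 and triangles replicate 2. The ratios over CLOCK and that of PER3 over PER2 are separated by group. PER1 over PER2 is separated too, but narrowly (0.911 and 1.09 in shYY1, 0.811 and 0.896 in shNC). The values of CRY1 over CRY2 lie between 3.18 and 4.46 with the shYY1 libraries inside the range of the shNC libraries.

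The PER genes encode the inhibitors that carry CRY proteins into the nucleus, and they are themselves E-box targets. PER3 (ENSG00000049246, chromosome 1, 7784320 to 7845177, plus strand) had 404 and 376 counts in shYY1, against 810 and 811 in shNC, which was 5.75 and 5.51 CPM in shYY1 and 11.6 and 11.2 CPM in shNC. Its replicates lay close together within each group and the groups did not overlap. The log2 fold change was -1.02 ± 0.158 (SE), or 2.03-fold lower in shYY1, and -1.05 to -0.98 with each library left out in turn.

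PER1 (ENSG00000179094, chromosome 17, 8140472 to 8156405, minus strand), which is also induced directly by cyclic AMP and glucocorticoid signals, was at 10.1 and 10.7 CPM in shYY1 and at 9.22 and 9.91 CPM in shNC (log2 fold change 0.12 ± 0.149, SE). PER2 (ENSG00000132326, chromosome 2, 238244044 to 238290102, minus strand) was at 10.8 and 9.55 CPM in shYY1 and at 11.0 and 10.8 CPM in shNC (-0.10 ± 0.148, SE), with overlapping groups. Both differences were smaller than their SE. In FPKM the ratio of PER3 to PER2 was 0.449 and 0.487 in shYY1, against 0.885 and 0.882 in shNC, and the ratio of PER1 to PER2 was 0.911 and 1.09 in shYY1, against 0.811 and 0.896 in shNC. Among the 3 PER genes the lower level was therefore seen for PER3.

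CRY1 and CRY2 encode the main repressors of the CLOCK and BMAL1 dimer. CRY1 (ENSG00000008405, chromosome 12, 106991364 to 107093549, minus strand) was at 32.3 and 33.5 CPM in shYY1 and at 31.9 and 31.8 CPM in shNC, a log2 fold change of 0.05 ± 0.0978 (SE) that came out at -0.0029 when libraries were scaled by their totals alone and at -0.01 on log2(FPKM + 1). It was the most abundant clock transcript per length, with 5.67 ± 0.0479 FPKM in shYY1 and 5.70 ± 0.233 FPKM in shNC (SD, n = 2 each). CRY2 (ENSG00000121671, chromosome 11, 45847118 to 45883247, plus strand) was at 11.6 and 11.6 CPM in shYY1 and at 9.35 and 13.0 CPM in shNC. The 2 shNC libraries stood on either side of both shYY1 libraries, and the log2 fold change of 0.05 ± 0.178 (SE) was -0.17 without shNC replicate 1 and 0.31 without shNC replicate 2.

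NR1D1 and NR1D2 encode the REV-ERB repressors. NR1D1 (ENSG00000126368, chromosome 17, 40092793 to 40100589, minus strand) was the lowest of the 10 by counts, with 340 and 298 in shYY1, against 260 and 276 in shNC, or 4.84 and 4.36 CPM in shYY1 and 3.71 and 3.83 CPM in shNC. Its log2 fold change was 0.29 ± 0.208 (SE). NR1D2 (ENSG00000174738, chromosome 3, 23945286 to 23980617, plus strand) was at 23.3 and 23.4 CPM in shYY1 and at 23.1 and 19.7 CPM in shNC (0.13 ± 0.118, SE), so that the shYY1 values lay just above the higher shNC library. NR1D1 overlaps THRA over 1075 bases on the opposite strand and NR1D2 overlaps NKIRAS1 over 1306 bases. THRA had 494 and 499 counts in shYY1, against 592 and 619 in shNC, and NKIRAS1 had 1695 and 1684 in shYY1, against 899 and 1451 in shNC. AC129492 overlaps PER1 over 5590 bases on the same strand, with 31 and 35 counts in shYY1, against 24 and 46 in shNC. Strand use in the counting is not given, so reads from the shared stretches cannot be told apart.

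**Figure D3:**
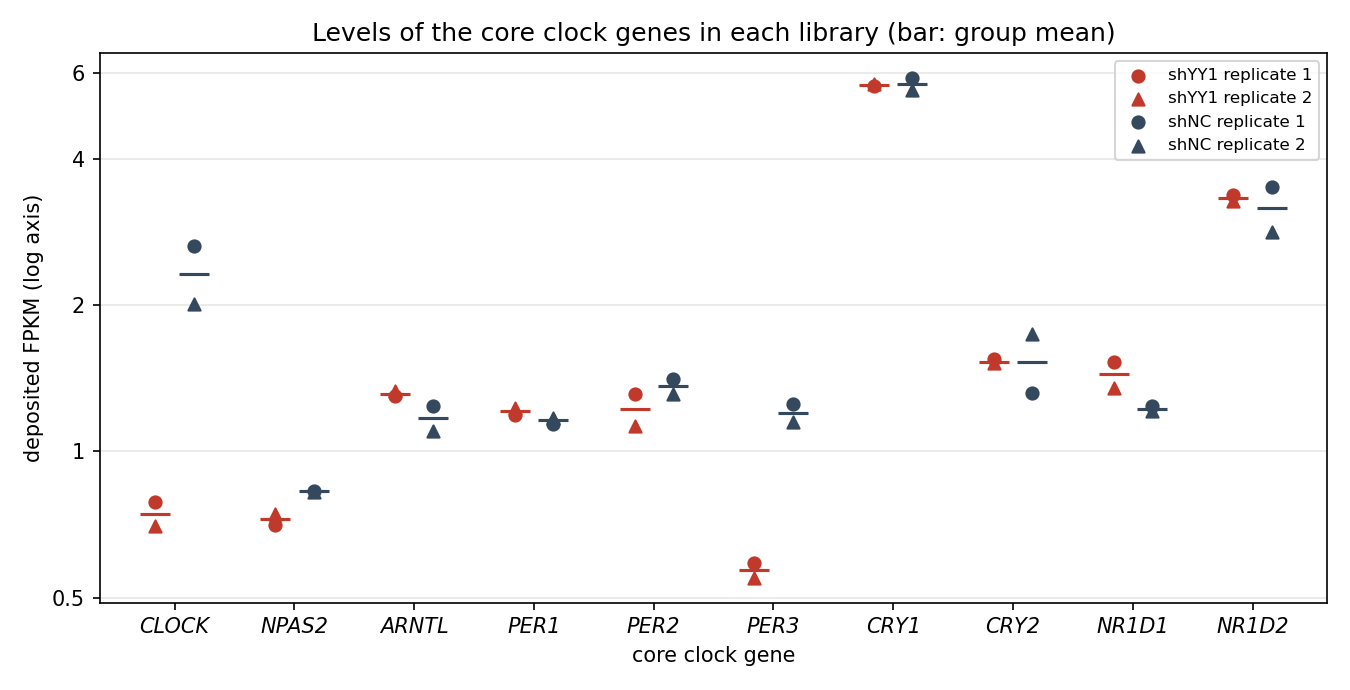
Deposited FPKM of the 10 clock genes in each library on a log axis, with shYY1 (red) left of shNC (dark); circles are replicate 1, triangles replicate 2 and bars the group means of 2 libraries. CLOCK and PER3 lie well apart between the groups, while CRY1 and NR1D2 are the highest transcripts in both.

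By mean FPKM the order in shYY1 was CRY1 (5.67), NR1D2 (3.32), CRY2 (1.53), NR1D1 (1.44), ARNTL (1.31), PER2 (1.22), PER1 (1.21), CLOCK (0.745), NPAS2 (0.726) and PER3 (0.569). In shNC it was CRY1 (5.70), NR1D2 (3.16), CLOCK (2.32), CRY2 (1.53), PER2 (1.36), NR1D1 (1.22), PER3 (1.20), ARNTL (1.17), PER1 (1.16) and NPAS2 (0.828). CLOCK held rank 8 of 10 in shYY1 and rank 3 in shNC, and PER3 held rank 10 in shYY1 and rank 7 in shNC. Within shNC the library values of CRY2 and PER2 interleaved, as did those of NR1D1, PER3, ARNTL and PER1, so the order within each of these sets is not larger than the spread of replicates. Within shYY1 the same held for CRY2 and NR1D1, for ARNTL, PER2 and PER1, and for CLOCK and NPAS2, while both values of PER3 lay below all others.

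With edgeR (quasi-likelihood, Benjamini-Hochberg adjusted p under 0.05 over all tested genes), 0 of the 10 clock genes were called higher and 2, CLOCK and PER3, were called lower. Over all 18035 tested genes 9.94% were called, 5.05% higher and 4.90% lower, and nothing is read from the count of 2 because the contrast was known when they were chosen. In 8 of the 10 genes the shYY1 libraries lay on 1 side of both shNC libraries, and so they did in 54.9% of all tested genes. The median log2 fold change of the 10 genes was 0.05, against -0.01 over all tested genes. With fold changes ranked from the most negative, 376 tested genes lay below CLOCK and 992 below PER3, and 1029 tested genes were at least 2-fold lower.

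**Figure D4:**
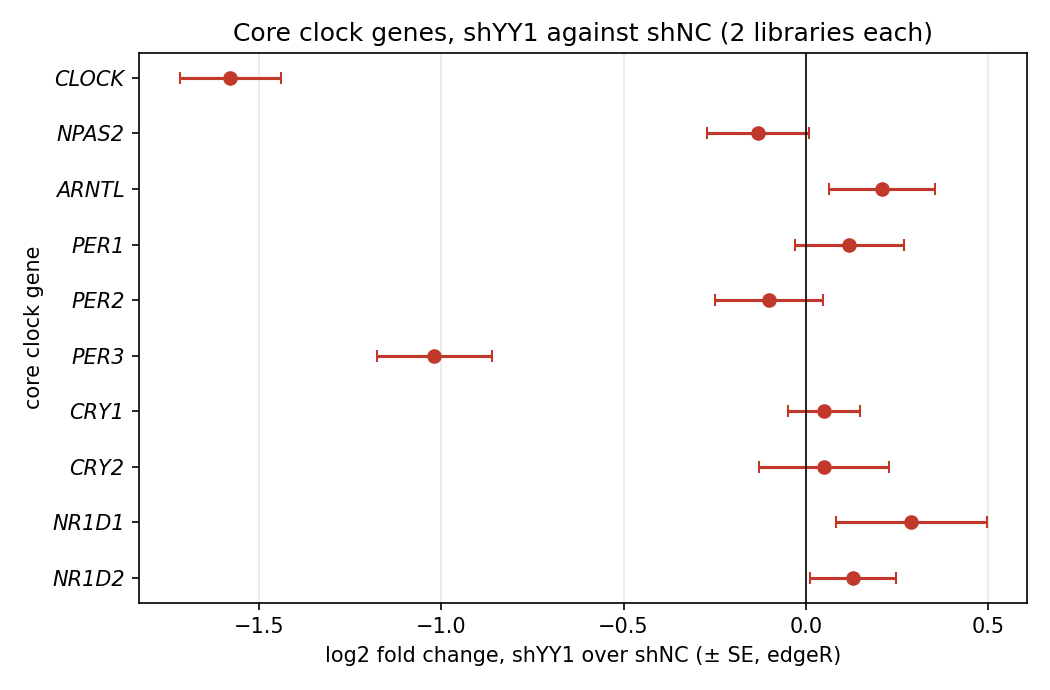
Log2 fold changes of the 10 clock genes, shYY1 over shNC, from edgeR's fit over all genes; points are estimates and bars ± 1 SE, with 2 libraries per group. CLOCK (-1.58) and PER3 (-1.02) lie to the left and the other 8 genes between -0.13 and 0.29.

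The nearest protein-coding gene on each side of every clock gene was read next, to see whether a difference was shared along the chromosome. Of these 20 flanking genes, all tested, 0 rose and 4 fell, where 4.90% of all tested genes were called lower. The start and end of genes, and so the distances, are those of the deposited table. TMEM165 lies 1728 bases from CLOCK and encodes a Golgi membrane protein. It had 3818 and 3552 counts in shYY1, against 3314 and 3449 in shNC. Its log2 fold change of 0.16 ± 0.0871 (SE) did not pass the test (edgeR adjusted p = 0.298). NMU, 48320 bases from CLOCK on the other side, had only 6 and 0 counts in shYY1, against 28 and 14 in shNC. Its log2 fold change of -2.74 ± 1.4 (SE) did not pass either (edgeR adjusted p = 0.27). VAMP3, a vesicle SNARE protein whose gene lies 2888 bases from PER3 on the same strand, fell to 2658 and 2489 counts in shYY1, against 6772 and 6903 in shNC. Its log2 fold change was -1.37 ± 0.0834 (SE; edgeR adjusted p = 0.000118), larger in size than that of PER3. The next gene beyond PER3, TNFRSF9, had 12 and 15 counts in shYY1 and 27 and 26 in shNC and did not pass.

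VAMP2, the related SNARE gene 2744 bases from PER1, also fell, with 1053 and 1124 counts in shYY1, against 1623 and 2005 in shNC (log2 fold change -0.70 ± 0.13, SE; edgeR adjusted p = 0.0121). The other 2 that fell lay farther from their clock genes. SLC35C1, a GDP-fucose transporter gene, is 34102 bases from CRY2 (-0.53 ± 0.125, SE; edgeR adjusted p = 0.0315). THRB, a thyroid hormone receptor gene, is 136536 bases from NR1D2 (-0.65 ± 0.138, SE; edgeR adjusted p = 0.021). SLC35C1 lost its call without shYY1 replicate 1, without shYY1 replicate 2 and without shNC replicate 2, with log2 fold changes of -0.59, -0.47 and -0.40 and adjusted p-values of 0.0566, 0.13 and 0.0766. THRB lost its call without shYY1 replicate 2 (-0.58, adjusted p = 0.109), and with limma-trend on log2(FPKM + 1) (-0.34, adjusted p = 0.0773) or on log2(FPKM + 0.1) (-0.64, adjusted p = 0.0871). PER1, CRY2 and NR1D2 themselves were not called. Of 9 genes that overlap a clock gene, 4 were tested and 0 were called.

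The 6 further lists hold 89 other clock pathway genes in the table, 85 of them tested. Of these, 12 rose and 6 fell, with a median log2 fold change of 0.01, against -0.01 over all tested genes. Of the 85 genes 21.2% were called, beside 9.94% of all tested genes. The counts were 4 higher and 5 lower without shYY1 replicate 1, 5 and 2 without shYY1 replicate 2, and 23 and 11 without shNC replicate 2. Scaling by library totals alone gave 7 higher and 10 lower, so the share of higher calls was 41.2% there and 66.7% with TMM factors. The share called also depended on which genes were tested. Of genes with at least 5 CPM in 2 libraries, 24 of 78 on the lists were called, beside 2412 of 10708 over all genes. On log2(FPKM + 1) it was 11 of 77 on the lists, beside 1514 of 10939 over all genes. BTRC, SIAH2 and CDKN1A were among the genes that kept their calls whichever of the 4 libraries was dropped and under all other alternatives. BHLHE40, FBXW7 and SIK1, by contrast, lost theirs with library totals alone, and these 3 with CSNK1E, KMT2A and CREB1 lost theirs on both FPKM scales.

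The list of other transcription factors of the clock loops also held TIMELESS and TIPIN, which are not transcription factors. In this list 1 of 9 tested genes rose and 0 fell (median log2 fold change 0.09). That was 11.1% called, beside 9.94% of all tested genes. BHLHE40 (DEC1), a repressor that competes for E-boxes, was at 68.1 and 68.8 CPM in shYY1, against 56.0 and 52.3 CPM in shNC (log2 fold change 0.34 ± 0.0854, SE; edgeR adjusted p = 0.0411). Its call was lost without shYY1 replicate 1 (0.35, adjusted p = 0.24) and without shYY1 replicate 2 (0.33, adjusted p = 0.275). DBP, an activator through D-boxes and a classical output of the loop, had 134 and 175 counts in shYY1, against 261 and 271 in shNC, and its log2 fold change of -0.74 ± 0.255 (SE) did not pass (edgeR adjusted p = 0.105). NFIL3, which represses through D-boxes, was at 31.1 and 31.2 CPM in shYY1 and 31.2 and 31.5 CPM in shNC. ARNTL2, the relative of ARNTL, was at 45.9 and 38.3 CPM in shYY1 and 35.2 and 30.9 CPM in shNC and did not pass (edgeR adjusted p = 0.108). CIART and HLF were too low to be tested.

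Among kinases and phosphatases of clock proteins, 1 of 15 rose and 0 fell (median log2 fold change 0.12), or 6.67% called, beside 9.94% of all tested genes. The count that rose was 0 without shYY1 replicate 1, 0 without shYY1 replicate 2, 3 without shNC replicate 1, 6 without shNC replicate 2 and 0 on either FPKM scale. CSNK1E, a casein kinase that marks PER proteins for degradation, was at 111 and 114 CPM in shYY1, against 88.5 and 91.7 CPM in shNC (log2 fold change 0.32 ± 0.077, SE; edgeR adjusted p = 0.0336). Without shYY1 replicate 1 it was 0.34 with an adjusted p of 0.219, and without shYY1 replicate 2 it was 0.31 with an adjusted p of 0.309.

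Among ubiquitin ligases and deubiquitinases of clock proteins, 2 of 15 tested genes rose and 3 fell (median log2 fold change -0.03), and 1 rose and 2 fell without shYY1 replicate 1. With all 4 libraries 33.3% of the list were called, beside 9.94% of all tested genes. BTRC, which acts on phosphorylated PER proteins, fell to 33.2 and 31.4 CPM in shYY1, against 49.5 and 46.6 CPM in shNC (log2 fold change -0.57 ± 0.0953, SE; edgeR adjusted p = 0.00771). SIAH2, a ligase reported to act on REV-ERB alpha, rose to 56.0 and 53.5 CPM in shYY1, against 33.4 and 30.5 CPM in shNC (0.78 ± 0.0959, SE; edgeR adjusted p = 0.00215). For both genes the shYY1 libraries lay on 1 side of both shNC libraries.

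FBXW7, an F-box protein, rose (log2 fold change 0.56, edgeR adjusted p = 0.0306) and HUWE1, a large ubiquitin ligase, fell (-0.35, edgeR adjusted p = 0.0273). FBXW7 lost its call without shYY1 replicate 1 (0.45, adjusted p = 0.208) and without shNC replicate 2 (0.47, adjusted p = 0.0621). HUWE1 lost its call without shYY1 replicate 1 (-0.31, adjusted p = 0.334) and without shYY1 replicate 2 (-0.38, adjusted p = 0.224).

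Of 24 chromatin and RNA-binding cofactors 1 rose and 2 fell (median log2 fold change -0.10), or 12.5% called, beside 9.94% of all tested genes. The counts were 0 and 0 without shYY1 replicate 2, 1 and 4 without shNC replicate 1, 4 and 4 without shNC replicate 2, and 1 and 4 with library totals alone. HDAC1, a histone deacetylase of repressor complexes, rose to 401 and 402 CPM in shYY1, against 272 and 309 CPM in shNC (log2 fold change 0.47, edgeR adjusted p = 0.0129). KMT2A, a histone methyltransferase that works with CLOCK and BMAL1, fell to 85.8 and 80.7 CPM in shYY1, against 131 and 103 CPM in shNC (-0.49, edgeR adjusted p = 0.0282). SIRT1, a deacetylase of clock proteins, fell to 17.8 and 16.4 CPM in shYY1, against 23.5 and 24.7 CPM in shNC (-0.49, edgeR adjusted p = 0.0284).
Each of these calls was lost in at least 1 of the fits with a library left out. HDAC1 stayed at a log2 fold change of 0.47 when shYY1 replicate 1 was left out (SE 0.161, adjusted p = 0.0791) and when shYY1 replicate 2 was (SE 0.168, adjusted p = 0.0827), against an SE of 0.0882 with all libraries. KMT2A was at an adjusted p of 0.0896 without shYY1 replicate 2 (log2 fold change -0.44). SIRT1 was at adjusted p-values of 0.071 without shYY1 replicate 1 (-0.55), 0.189 without shYY1 replicate 2 (-0.43) and 0.0513 without shNC replicate 2 (-0.45).

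Of 12 genes that carry signals to PER transcription, 1 rose and 1 fell (median log2 fold change -0.00). That was 16.7% called, beside 9.94% of all tested genes. The counts were 0 and 0 without shYY1 replicate 1, without shYY1 replicate 2, without shNC replicate 1 and on either FPKM scale, 2 and 3 without shNC replicate 2, and 0 and 3 with library totals alone. CREB1, the factor that binds cyclic AMP response elements, fell to 20.9 and 18.8 CPM in shYY1, against 28.2 and 27.2 CPM in shNC (log2 fold change -0.48, edgeR adjusted p = 0.0293). SIK1, a kinase that limits this signal, rose to 11.3 and 12.9 CPM in shYY1, against 7.92 and 7.94 CPM in shNC (0.60, edgeR adjusted p = 0.0408). CREB1 lost its call without shYY1 replicate 1 (-0.56, adjusted p = 0.0624), without shYY1 replicate 2 (-0.40, adjusted p = 0.224) and without shNC replicate 1 (-0.45, adjusted p = 0.0682). SIK1 lost it with any 1 of the 4 libraries left out, at log2 fold changes of 0.51 to 0.70.

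Of 16 tested clock-controlled output genes, 7 rose and 0 fell, where 5.05% of all tested genes were called higher. The median log2 fold change was 0.33, against -0.01 over all tested genes, and 11 of the 16 estimates were positive. DBP (-0.74 ± 0.255, SE) and TEF (-0.42 ± 0.164, SE), which belong to this list and to the transcription factors, were lower in both shYY1 libraries but not called. BHLHE40, already counted among the transcription factors, is one of the 7. These genes answer to many other signals as well. CDKN1A, the cell cycle inhibitor p21, rose to 130.0 and 137 CPM in shYY1, against 75.2 and 94.0 CPM in shNC (log2 fold change 0.66 ± 0.109, SE; edgeR adjusted p = 0.00758).
MYC rose to 166 and 173 CPM in shYY1, against 117 and 123 CPM in shNC (0.49 ± 0.0762, SE; edgeR adjusted p = 0.00577), and NAMPT, the rate-limiting enzyme of NAD salvage, rose to 99.0 and 98.6 CPM in shYY1, against 75.2 and 66.1 CPM in shNC (0.48 ± 0.0895, SE; edgeR adjusted p = 0.0118). MYC was not called without shYY1 replicate 2 (0.47, adjusted p = 0.0538), nor NAMPT without shYY1 replicate 1 (0.48, adjusted p = 0.058). The count of output genes that rose was 3 without shYY1 replicate 1, 3 without shYY1 replicate 2, 4 with library totals alone and 4 of 12 tested on either FPKM scale, with 0 lower each time. No contrast of these lists with other genes was tested.

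**Figure D5:**
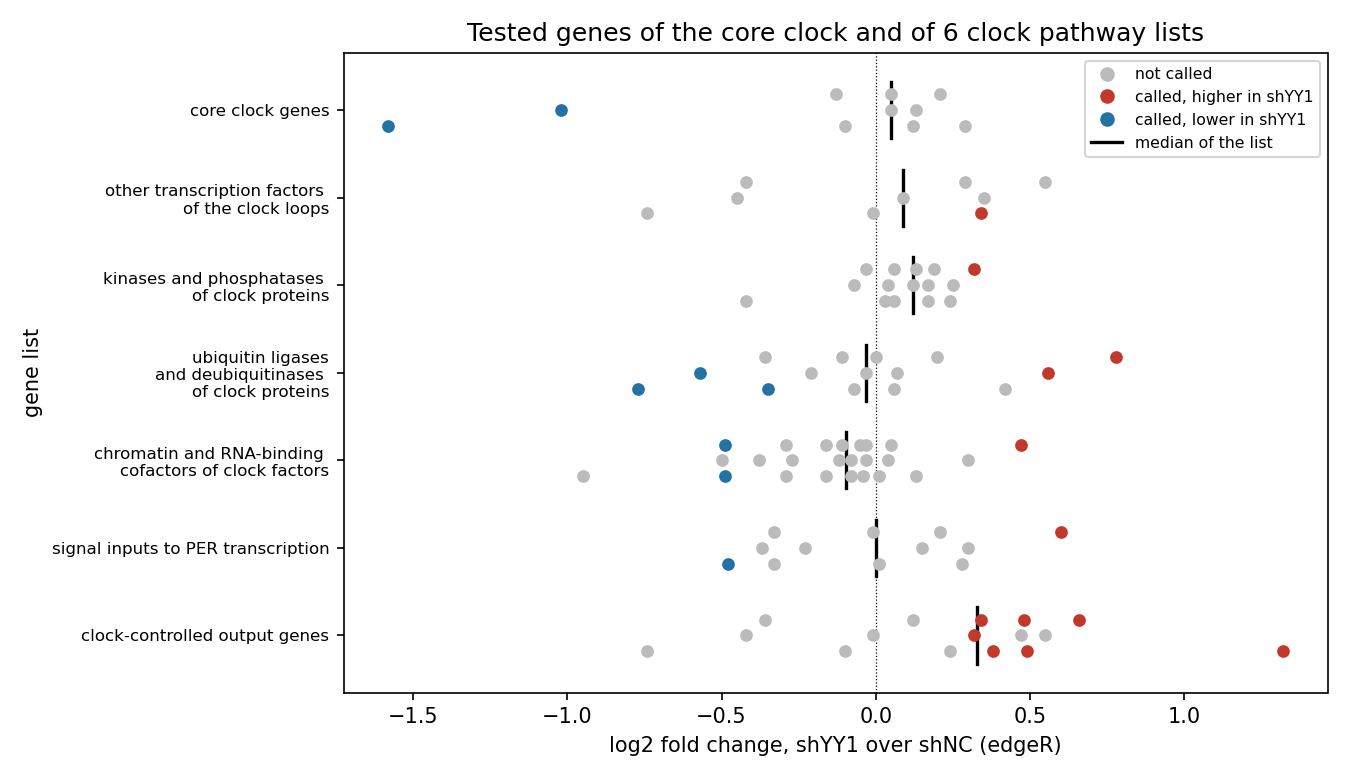
Log2 fold changes, shYY1 over shNC, of every tested gene of the core clock set and of 6 lists of other clock pathway genes; each point is a gene, coloured by whether edgeR's adjusted p was under 0.05. Output genes have 7 called points, all to the right of 0, and CLOCK at -1.58 is the leftmost called point.

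The genes whose 4 library values were most like CLOCK's were found among 9952 protein-coding genes with a mean of at least 5 CPM over the 4 libraries, by the distance between log2 CPM values centred on each gene's mean. The nearest were CILK1 (distance 0.0447), MDM2 (0.0748), ZDHHC20 (0.0967), THUMPD1 (0.109) and GALNT7 (0.155). MDM2, the ubiquitin ligase of p53, had 1403 and 1185 counts in shYY1, against 4309 and 3426 in shNC. CILK1, a protein kinase, had 322 and 289 counts in shYY1, against 990 and 830 in shNC, and was below 5 CPM in both shYY1 libraries, so that it passed this minimum through the shNC libraries. With 4 libraries in 2 groups, any gene that is about 3-fold lower and has its higher shNC value in replicate 1 comes out near CLOCK.

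An earlier search of these data had singled out the words TTCAGAA and TCAGAAA in 3′ untranslated regions, so the regions of the clock genes were read for them in GENCODE 29 transcripts (GRCh38). One or both words were present in 4 of the 10 genes (40.0%), beside 29.2% of 12835 genes read the same way. CLOCK held 4 of the first and 3 of the second in 7512 bases, at 6 sites, since 1 of each overlap, and of 327 genes with at least 7000 bases 93.6% held a word. PER3 held 1 TCAGAAA in 2421 bases. PER2, with 1 of each overlapping at 1 site in 2337 bases, and NPAS2, with 1 TTCAGAA in 1247 bases, held words too and were among the genes that differed little. The sites below, with the word in capitals, show a CLOCK word at chr4:55434538-55434566 (minus strand), the PER3 word at chr1:7843947-7843975 (plus strand) and a PER2 word at chr2:238245162-238245190 (minus strand).
CLOCK word: ttttcaagttaTTCAGAAatatccctcat
PER3 word: acccctgcagaTCAGAAAaaacaaataga
PER2 word: tccaaagatggTTCAGAAaatttaatatt
The words were picked from the same contrast, so their presence is a description only.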

How the data were processed

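RNA-seq of 2 shYY1 and 2 shNC libraries of KYSE30 cells was read from 1 table in which the authors deposited raw read counts and FPKM per gene for each library, per the file headers. The aligner, the counter, the strand setting, the FPKM gene lengths and the genome build of this table were not given in the sources used here. The submitters' processing notes name Bowtie 0.12.2 and the builds mm8 and mm9, which are mouse builds and cannot describe this human table. Of its gene IDs 29871 were found in GENCODE 29 (GRCh38), all on the same chromosome, but only 17586 of them, and 2 of the 10 clock genes, with the same start and end. Coordinates, distances and overlaps of genes are those of the table as deposited and could differ in another annotation.

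Counts were tested with edgeR 4.0.16 in R 4.3.3 (TMM factors, filterByExpr with a minimum count of 10 and a minimum total of 15, robust quasi-likelihood test, Benjamini-Hochberg threshold 0.05) on all 18035 genes that passed. The design leaves 2 residual degrees of freedom, and an exact permutation test of 2 against 2 libraries cannot go below p = 0.333. Replicates differed beyond sampling noise in both groups and each library was counted once. CPM are scaled by TMM factors; SE are of the fitted log2 fold change.

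The alternatives were other scalings and filters, DESeq2 1.42.0, limma 3.58.1, a replicate block, each library left out, and FPKM on a log2 scale. The clock genes and all lists were chosen with earlier results of these data known. Named were YY1, the 10 clock genes, in each other list up to 4 called genes by lowest adjusted p plus at most 2 called the other way, called neighbours, and the 5 genes nearest to CLOCK. DBP, TEF, NFIL3, ARNTL2, TIMELESS, TIPIN, TMEM165, NMU, TNFRSF9, THRA, AC129492 and NKIRAS1 were named outside this rule, after their values were seen. Promoter windows are from RefSeq (GRCh38.p14). Some genes that the naming rule selects are counted in their lists and not reported here by name.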

Additional observations from a re-analysis of the deposited data

How the results depend on the processing

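CLOCK and PER3 were the 2 clock genes called lower under each of the 14 alternatives, with log2 fold changes of -1.73 to -0.92 for CLOCK and -1.07 to -0.49 for PER3. The smallest sizes came with limma on log2(FPKM + 1), where the pseudocount itself shrinks differences of low genes. Both FPKM fits kept only genes with at least 1 FPKM in 2 libraries. CLOCK and PER3 were under 1 FPKM in both shYY1 libraries, so they passed this minimum through the shNC libraries alone. NPAS2, under 1 FPKM in every library, was not tested there, so these fits are no separate support for the calls. The sign turned for CRY1, 0.05 with TMM factors, which was -0.0029 with library totals and -0.01 on both log2(FPKM + 1) and log2(FPKM + 0.1), and for CRY2, 0.05, which ranged between -0.17 and 0.31 with 1 library left out. The cause was not tested. For the other named genes and YY1, 318 of 364 recomputed fold changes kept direction and call, 46 kept the direction and lost the call, and 0 changed sign. Over all tested genes 1793 were called by edgeR and 2711 by DESeq2, and 1024 to 3304 with 1 library left out. Among the other clock pathway genes 18 were called, against 11 on either FPKM scale, where 77 were tested, and 7 to 34 with 1 library left out. Of all calls 50.8% were higher with TMM factors, 40.3% with library totals and 44.3% on log2(FPKM + 1); library totals moved the median log2 fold change of all genes to -0.06.

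The replicate number as a block gave 2902 calls over all genes and 30 among the other clock pathway genes. Libraries of the same number did not deviate together (correlation 0.00395), so the numbers were not shown to pair the libraries.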
